A study of Mus musculus with 8 samples.

Results

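The 60 genes described here build and run mitosis: the cyclins, kinases and phosphatases that open it, the kinesins that move the spindle, the kinetochore and checkpoint proteins that hold chromosomes to it, the factors that end it, and the proteins that fold and part the chromosomes. They are the Ensembl rows of a list of 60 mouse symbols, and all 60 were found among the 29079 genes of the count table and passed the filter on low counts. Messenger RNA of MC38, a mouse colon adenocarcinoma cell line, was sequenced in 4 groups of 2 libraries each. The WT groups were MC38 made with a CRISPR control, and the KO groups were MC38 edited with gRNA1 against Piezo2, a mechanically gated ion channel. In each line 1 group was not irradiated and 1 received 30 Gy of X-rays in a single fraction, with RNA taken 60 hours later. All groups share the parental line and the CRISPR procedure, and the KO line rests on a single guide RNA, so that an effect of the knockout and a difference between 2 derived lines cannot be told apart. The series title places Piezo2 of tumour cells in the question of radioresistance, and the comparisons below give the mitotic genes' side of it.

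A cell enters mitosis when cyclin B bound to the kinase CDK1 becomes active, which the CDC25 phosphatases and the Polo and Aurora kinases promote. Transcripts of this program are made late in the cycle, mainly in G2, by promoters that bind NF-Y at CCAAT boxes and the MuvB complex with B-MYB and FOXM1 at an element named CHR (cell cycle genes homology region). The proteins are destroyed at the end of mitosis by the anaphase-promoting complex. Ionising radiation breaks DNA and holds cells before mitosis through a checkpoint in G2. In bulk RNA, more cells in G2 or mitosis and more of a transcript in each such cell cannot be told apart.

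Promoters of members are shown first, since the CHR and CCAAT motifs are what this gene group is known for. RefSeq windows from 250 bases before to 50 bases after the start site, on GRCm38.p6, were matched by symbol for 51 of the 60 members and for 27025 genes in all, and where a gene had more than 1 start, as 4 members did, the first listed was used. On either strand the letters TTTGAA, the CHR motif, were found in 35 of the 51 members (68.6%) and in 18.1% of all promoters. The letters CCAAT were found in 38 members (74.5%) against 37.9% of all promoters, and both motifs in 30 members (58.8%) against 7.12%. The motifs do not overlap in their letters. A CHR match lay between 30 bases before and 40 bases after the start in 29 of the 51 members (56.9%) and in 965 of 27025 promoters (3.57%). That narrower window was chosen after the positions were seen. These shares are descriptions of letters, and a match is not evidence of a bound site.

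**Figure D1:**
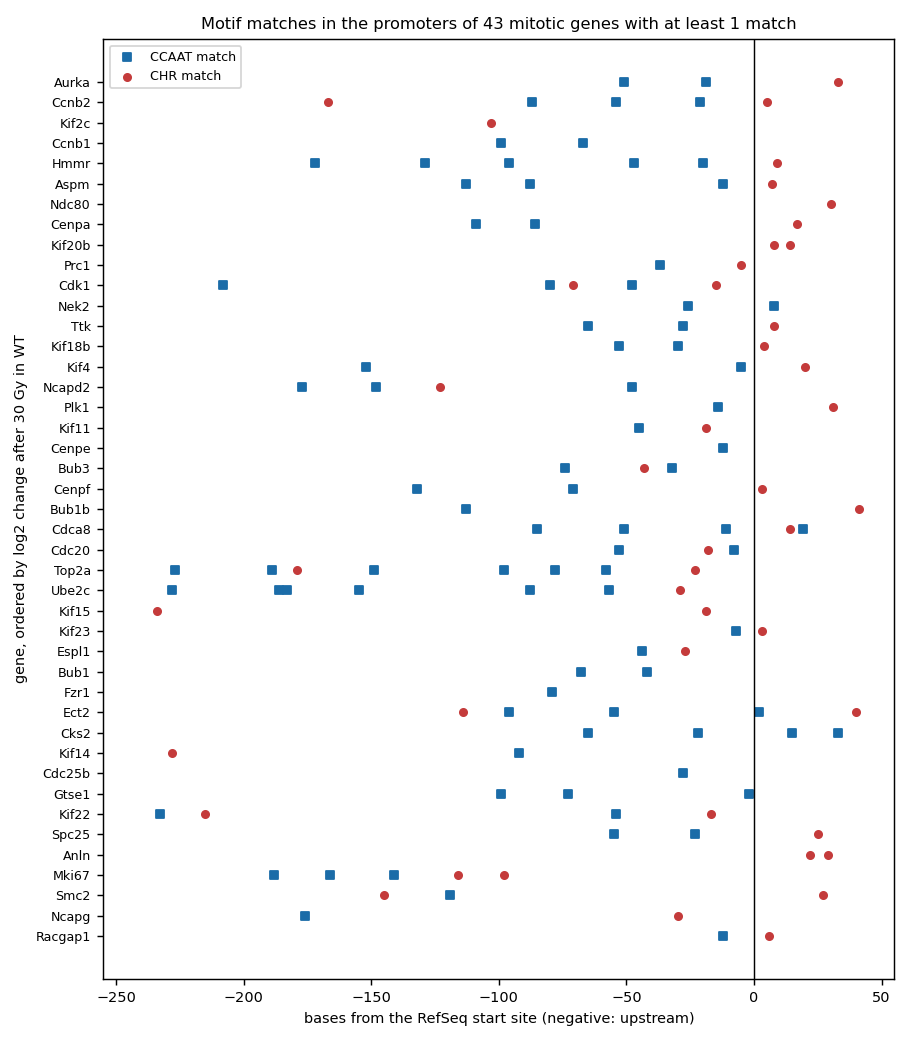
Positions of CCAAT matches (squares) and CHR matches (circles) on either strand in the RefSeq promoters of the 43 members that hold at least 1 match, in bases from the start site. Genes are ordered by their log2 change after 30 Gy in WT, the largest rise at the top. CHR matches gather close to the start site, where 29 of 51 members hold such a match, while most CCAAT matches lie upstream of it, and both kinds occur from the top to the bottom of the order.

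Both motifs were found among members that rose after irradiation in WT and among members that did not. A CHR match was held by 22 of the 29 that rose (75.9%) and by 13 of the other 22 with a promoter (59.1%). A CCAAT match was held by 21 of the 29 (72.4%) and by 17 of the 22 (77.3%). The windows below run from 130 bases before the start to 30 bases from it, 160 bases each, 5′ to 3′ on the gene's strand, with CHR and CCAAT matches of either strand in capitals. The first 6 belong to the members with a RefSeq promoter that rose most after irradiation in WT, apart from Kif20a, which is named only, and the last 3 to those with the smallest estimated change.
Nusap1, chr2:119618168-119618327, plus strand: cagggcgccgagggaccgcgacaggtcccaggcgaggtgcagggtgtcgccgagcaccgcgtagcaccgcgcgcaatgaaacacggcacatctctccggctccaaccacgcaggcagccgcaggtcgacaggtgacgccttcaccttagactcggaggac
Aurka, chr2:172370541-172370700, minus strand: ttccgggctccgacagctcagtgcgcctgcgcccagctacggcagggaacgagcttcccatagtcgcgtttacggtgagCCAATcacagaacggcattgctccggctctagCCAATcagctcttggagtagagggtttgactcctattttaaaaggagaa
Ccnb2, chr9:70421525-70421684, minus strand: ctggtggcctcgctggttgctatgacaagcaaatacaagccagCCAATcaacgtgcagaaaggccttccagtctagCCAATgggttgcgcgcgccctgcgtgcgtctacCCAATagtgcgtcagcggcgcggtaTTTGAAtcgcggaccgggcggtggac
Kif2c, chr4:117178743-117178902, minus strand: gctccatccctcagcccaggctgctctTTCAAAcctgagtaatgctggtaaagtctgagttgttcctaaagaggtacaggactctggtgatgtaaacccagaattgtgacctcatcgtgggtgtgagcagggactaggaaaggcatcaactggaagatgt
Ccnb1, chr13:100786457-100786616, minus strand: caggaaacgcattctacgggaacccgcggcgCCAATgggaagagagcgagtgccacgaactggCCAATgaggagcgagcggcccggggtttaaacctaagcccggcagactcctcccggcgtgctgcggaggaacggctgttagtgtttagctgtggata
Hmmr, chr11:40733408-40733567, minus strand: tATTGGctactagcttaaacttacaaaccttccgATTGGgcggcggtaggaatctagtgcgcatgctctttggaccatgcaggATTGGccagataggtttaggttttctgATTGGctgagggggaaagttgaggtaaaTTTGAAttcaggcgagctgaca
Spc25, chr2:69206184-69206343, minus strand: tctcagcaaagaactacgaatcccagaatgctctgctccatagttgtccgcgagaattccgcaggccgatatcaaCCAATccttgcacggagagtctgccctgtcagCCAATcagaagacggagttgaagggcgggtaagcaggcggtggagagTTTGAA
Anln, chr9:22389177-22389336, minus strand: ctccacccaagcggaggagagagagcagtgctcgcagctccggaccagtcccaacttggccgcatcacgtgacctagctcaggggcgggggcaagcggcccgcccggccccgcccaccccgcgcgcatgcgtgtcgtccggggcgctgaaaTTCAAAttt
Mki67, chr7:135716350-135716509, minus strand: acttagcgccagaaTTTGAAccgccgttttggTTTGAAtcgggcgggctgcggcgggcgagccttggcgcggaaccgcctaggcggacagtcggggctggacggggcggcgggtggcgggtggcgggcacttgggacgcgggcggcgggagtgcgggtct
The window of Ccnb2, cyclin B2, holds 3 CCAAT matches and then 1 CHR match, and that of Hmmr holds 4 and 1. Spc25, a kinetochore gene that was not called in either line, has the same order, with 2 CCAAT matches and 1 CHR match. Nusap1 rose and holds neither motif in its window. The RefSeq start used for Kif2c lies 3867 bases inside the gene as GENCODE M21 draws it.

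Total counts ran from 10971004 to 19887180 reads per library, and members took 1.26 and 1.30% of them in WT without irradiation and 1.58 and 1.64% after it. In KO their share was 1.23 and 1.24% without and 1.43 and 1.46% after irradiation, so the doses did not overlap within either line. Piezo2 itself had 0 and 0 reads in WT without irradiation against 3 and 9 after it, and 0 and 1 against 7 and 12 in KO, so its level cannot check which line is which. The labels call MC38 an epithelial cell line. Of the epithelial markers Krt8 had at most 20 reads and Krt18 at most 2 in any library, while Cdh1 had 526 to 1365, and 4 epithelial markers summed to 39.7 and 40.9 against 78.0 and 80.6 CPM (counts scaled to 1 M of the library total) in WT and 48.0 and 50.3 against 80.9 and 79.8 CPM in KO, non-irradiated against irradiated. Of other cell types, 6 leukocyte and macrophage markers summed to 2 and 3 reads in WT without irradiation against 26 and 22 after it and to 1 and 2 against 16 and 19 reads in KO, and 4 T and NK cell markers to 0 to 4 reads per library. Summed levels of 4 fibroblast markers, with Lum at no more than 1 read, were 29.7 to 32.0 CPM in WT without irradiation against 92.0 to 93.9 after it, and 65.7 to 68.1 against 113 to 120 in KO, and 3 endothelial markers summed to 1.42 to 6.16 CPM. The epithelial, leukocyte, fibroblast and endothelial sums were all higher in the irradiated libraries of each line, as most of the mitotic genes were. Single markers did not all follow the sums. Of 3 tested fibroblast markers 2 were called higher and 1 lower in irradiated KO, the latter at a log2 change of -0.32. Only 1 of the 6 leukocyte and macrophage markers passed the filter on low counts. The part of these markers in the results was not tested.

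Irradiation raised a large share of the mitotic genes in both lines. In WT 32 of the 60 rose and 2 fell, a share of 53.3% higher where 20.4% of the 14923 tested genes were called higher and 18.4% lower. In KO 26 rose and 2 fell, a share of 43.3% higher where 21.1% of all genes were called higher and 18.6% lower. A gene was called where its edgeR quasi-likelihood p, adjusted over all tested genes by Benjamini-Hochberg, was under 0.05. The median log2 change of the 60 was 0.33 in WT and 0.25 in KO, beside 0.03 and 0.02 over all tested genes. The 2 libraries of each group did not overlap with those of the other for 51 members in WT and 44 in KO. The same count was not made over all tested genes, so these counts do not set the members apart from other genes. The titles number the replicates but state no block, and a pairing was read from correlated replicate differences in these same counts. With the replicate as a block 44 members rose and 6 fell in WT, where 30.6% of all genes were called higher and 29.9% lower. In KO 35 rose and 9 fell with the block, where 30.6% were called higher and 29.6% lower. Without replicate 2 of irradiated KO the rises in KO numbered 17. Under every alternative tried, 20 of the 32 rises in WT and 15 of the 26 in KO were called, among them those of Ccnb1, Ccnb2, Cdk1, Aurka, Kif20a, Kif2c, Ndc80, Cenpa, Nusap1, Prc1 and Tpx2 in both lines.

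**Figure D2:**
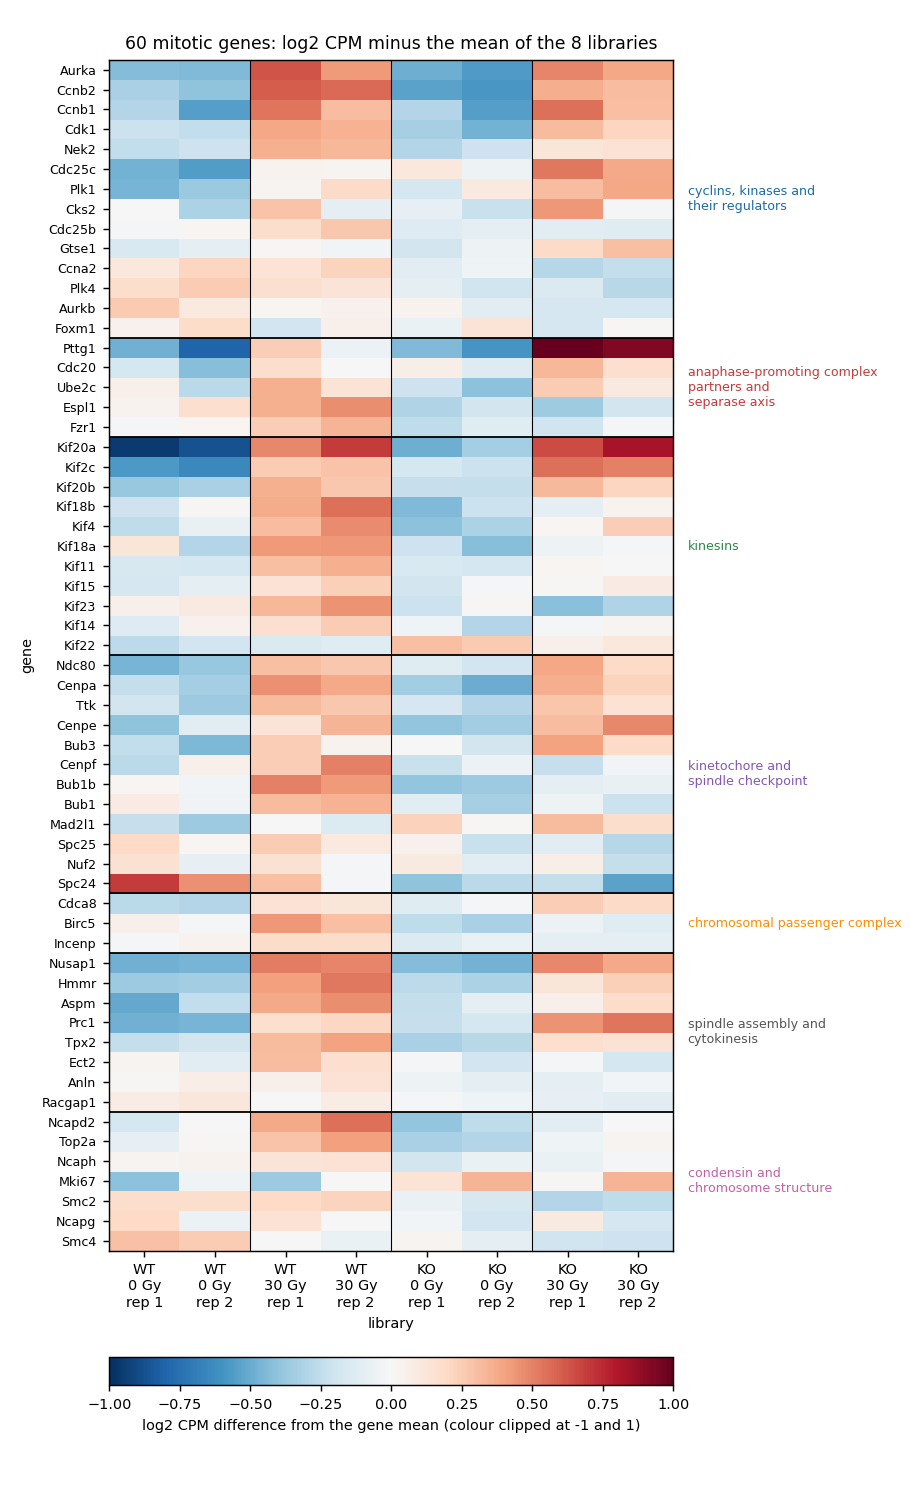
Log2 CPM of the 60 members in each of the 8 libraries, as the difference from the gene's mean over the libraries, by role and, within a role, by the log2 change after 30 Gy in WT. Most rows turn from blue to red between the non-irradiated and the irradiated libraries of both lines, while Pttg1 is reddest in irradiated KO alone and the row of Spc24 is reddest in non-irradiated WT.

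The cyclins and kinases that start mitosis were split. Of 14 such genes 7 rose in WT and 8 in KO, none fell, and the median log2 change was 0.34 in both lines. The shares higher were 50% in WT and 57.1% in KO, beside 20.4 and 21.1% of all tested genes. In what follows, values of a gene in a line are the CPM of replicates 1 and 2 without irradiation against those of replicates 1 and 2 after 30 Gy, and log2 changes carry their standard error.

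Ccnb1, the main mitotic B-type cyclin, stood at 203 and 169.5 against 358 and 306 CPM in WT and 203 and 169 against 363 and 305 CPM in KO. Every irradiated library lay above every non-irradiated one, and the log2 change was 0.78 ± 0.14 in WT and 0.81 ± 0.14 in KO (edgeR adjusted p = 0.0043 and 0.00337). Its paralog Ccnb2 had 140.3 and 132 against 266 and 259.9 CPM in WT and 121 and 117 against 226 and 218 CPM in KO, a change of 0.89 ± 0.07 in WT and 0.86 ± 0.07 in KO (edgeR adjusted p = 0.000105 and 9.17e-05). The kinase they activate, Cdk1, had 198 and 194 against 301 and 292 CPM in WT and 182 and 165 against 286 and 267 CPM in KO, and changed by 0.54 ± 0.08 and 0.64 ± 0.08 (edgeR adjusted p = 0.00141 and 0.000607). All 3 genes of the cyclin B and CDK1 pair were thus higher after irradiation in every library of both lines.

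Ccna2, the cyclin that acts in S phase and G2, did not follow them. It stood at 387 and 418 against 395 and 419.7 CPM in WT and 333 and 349 against 295 and 304 CPM in KO, with a log2 change of -0.04 ± 0.08 in WT and -0.22 ± 0.08 in KO (edgeR adjusted p = 0.714 and 0.0573). The WT groups overlapped, while both irradiated KO libraries lay below the non-irradiated ones, and with the replicate block the KO change of -0.22 ± 0.04 was called (edgeR adjusted p = 1.04e-05). The phosphatase gene Cdc25c, whose product removes the inhibitory phosphates from CDK1, had 24.9 and 23.5 against 35.3 and 35.2 CPM in WT and 37.1 and 33.4 against 49.7 and 44.8 CPM in KO and rose by 0.48 ± 0.10 in WT and 0.39 ± 0.09 in KO. Cdc25b, another phosphatase of the family, changed by 0.16 ± 0.07 and -0.04 ± 0.07 (edgeR adjusted p = 0.101 and 0.672), and the block called it higher in WT (edgeR adjusted p = 0.00145).

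Aurka, the Aurora kinase of the centrosome and spindle poles, had 75.3 and 74.8 against 158 and 137 CPM in WT and 72.6 and 68.8 against 143 and 133 CPM in KO. Its irradiated libraries were all above the non-irradiated ones, with a log2 change of 0.91 ± 0.09 in WT and 0.93 ± 0.09 in KO (edgeR adjusted p = 0.000222 and 0.000175). Aurkb, the Aurora kinase of the centromere and midzone, had 151 and 135 against 128 and 130.4 CPM in WT and 129.5 and 117 against 113 and 112 CPM in KO. It moved by -0.21 ± 0.08 and -0.17 ± 0.08 (edgeR adjusted p = 0.0892 and 0.161), and with the block it was called lower, at -0.20 ± 0.05 in WT and -0.16 ± 0.05 in KO (edgeR adjusted p = 0.000516 and 0.00602). The Aurora kinases therefore did not move as a family.

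Plk1, the Polo-like kinase that drives entry and cytokinesis, rose by 0.47 ± 0.11 in WT and 0.34 ± 0.11 in KO, with 90.7 and 97.2 against 128 and 143 CPM in WT and 111 and 134 against 155 and 164 CPM in KO. Nek2, a centrosome kinase, rose by 0.51 ± 0.07 and 0.35 ± 0.07. Plk4, which starts centriole duplication, moved by -0.13 ± 0.08 and -0.10 ± 0.08 and was not called in either line (edgeR adjusted p = 0.204 and 0.333), though with the block its WT change of -0.13 ± 0.05 was called lower (edgeR adjusted p = 0.0171). Foxm1, a transcription factor that drives many of these genes, had 211 and 232 against 179 and 212 CPM in WT and 195 and 225 against 181 and 206 CPM in KO, and its groups overlapped in both lines (log2 change -0.24 ± 0.12 and -0.15 ± 0.12, edgeR adjusted p = 0.157 and 0.353). With the block Foxm1 was called lower, at -0.24 ± 0.04 in WT and -0.15 ± 0.04 in KO (edgeR adjusted p = 9.26e-06 and 0.00292). The level of the factor's transcript thus did not rise with those of Ccnb1, Ccnb2, Aurka and Plk1. Gtse1, a microtubule and p53 binding protein, rose in KO by 0.33 ± 0.09 and stood at 0.06 ± 0.09 in WT. Cks2, a small CDK subunit whose replicates differed most among these genes, was at 0.20 ± 0.19 and 0.34 ± 0.19, and with the block it was called higher in both lines.

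**Figure D3:**
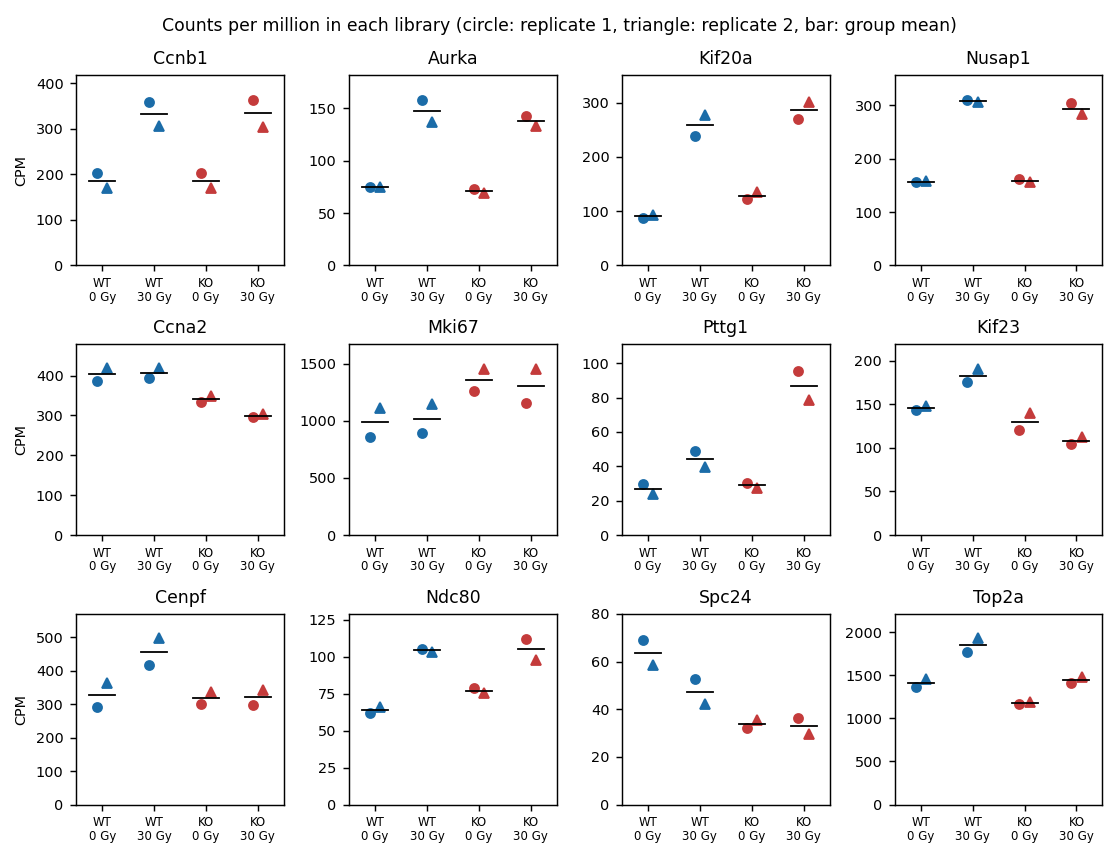
CPM of 12 members in each library, from 0, with replicate 1 as a circle, replicate 2 as a triangle and the group mean as a bar, WT in blue and KO in red. Ccnb1, Aurka, Kif20a and Nusap1 are higher after 30 Gy in both lines, Ccna2 and Mki67 are not called in either without the replicate block, Pttg1 is highest in irradiated KO, and Spc24 is highest in non-irradiated WT.

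Among partners of the anaphase-promoting complex, the ubiquitin ligase that ends mitosis, 1 of 5 genes rose in WT and 2 in KO. The WT share, 20%, was near the 20.4% of all tested genes, and the KO share was 40% beside 21.1%. Pttg1 encodes securin, which the complex destroys to free the protease separase. It had 29.6 and 23.7 against 49.1 and 39.8 CPM in WT and 30.4 and 27.5 against 95.2 and 78.5 CPM in KO, a log2 change of 0.67 ± 0.16 in WT (edgeR adjusted p = 0.0124) and of 1.55 ± 0.16 in KO (edgeR adjusted p = 0.000268). Its libraries without irradiation overlapped between the lines, and both irradiated KO libraries lay above every other library. Espl1, separase itself, had 137 and 150.1 against 171 and 185 CPM in WT and 109 and 118 against 105 and 118 CPM in KO, with changes of 0.25 ± 0.09 and -0.06 ± 0.09 that were not called (edgeR adjusted p = 0.0664 and 0.655). With the block the WT change of Espl1, 0.25 ± 0.04, was called (edgeR adjusted p = 6.52e-06).

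Cdc20, the coactivator that the spindle checkpoint holds back, had 224 and 189 against 286 and 255 CPM in WT and 264 and 232 against 319 and 285 CPM in KO. Its irradiated libraries lay above the non-irradiated ones in each line, yet the changes of 0.33 ± 0.12 and 0.25 ± 0.12 were called only with the replicate block (edgeR adjusted p = 0.0592 and 0.133 without it and 9.46e-09 and 2.96e-06 with it). Replicate 1 of Cdc20 was the higher one in all 4 groups. Fzr1, the coactivator that takes over from Cdc20 late in mitosis and in G1, had 74.7 and 76.7 against 89.7 and 95.4 CPM in WT and 63.4 and 69.5 against 65.9 and 74.3 CPM in KO (log2 change 0.23 ± 0.09 and 0.04 ± 0.09, edgeR adjusted p = 0.0802 and 0.776), and the block called it higher in WT (0.23 ± 0.06, edgeR adjusted p = 0.000503). Ube2c, the ubiquitin-conjugating enzyme of the complex, rose in KO by 0.45 ± 0.14 and was at 0.29 ± 0.14 in WT, where the block called it higher.

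Kinesins held the largest rise of any member in WT, that of Kif20a. In WT 8 of 11 rose and none fell, with a median log2 change of 0.44. In KO 4 rose and 2 fell, with a median of 0.25. The WT share higher was 72.7%, beside 20.4% of all tested genes. The KO shares were 36.4% higher and 18.2% lower, beside 21.1 and 18.6% of all tested genes. Kif20a, which carries the chromosomal passengers to the midzone in anaphase, had 88.0 and 93.6 against 238 and 277 CPM in WT and 122 and 135 against 269 and 302 CPM in KO. It rose by 1.45 ± 0.11 in WT and 1.12 ± 0.11 in KO (edgeR adjusted p = 8.12e-05 and 0.000199). Kif20a overlaps Cdc23 on the opposite strand by 1271 exonic bases, and since no strand setting is known, reads of the 2 genes in that stretch cannot be told apart. Over all libraries Cdc23 held 8671 reads and Kif20a 24224, and the part of shared reads in the Kif20a values was not tested.

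Kif2c, a microtubule depolymerase that corrects faulty attachments, had 106 and 100.5 against 187 and 192 CPM in WT and 139 and 136 against 231 and 223 CPM in KO and rose by 0.82 ± 0.07 and 0.69 ± 0.07 (edgeR adjusted p = 0.000135 and 0.000246). Kif20b, a cytokinesis motor, rose by 0.61 ± 0.07 and 0.47 ± 0.07, and Kif4, a chromosome arm motor, by 0.50 ± 0.11 and 0.46 ± 0.11. Kif11, the motor that pushes the spindle poles apart, had 257 and 255 against 353 and 367 CPM in WT and 259 and 255 against 291 and 286 CPM in KO. It rose by 0.43 ± 0.07 in WT (edgeR adjusted p = 0.00209) and stood at 0.13 ± 0.07 in KO (edgeR adjusted p = 0.156), where the block called it higher at 0.13 ± 0.04 (edgeR adjusted p = 0.00585). Kif15, Kif18a and Kif18b also rose in WT, by 0.27 ± 0.08, 0.44 ± 0.14 and 0.50 ± 0.12, and were at 0.11 ± 0.08, 0.25 ± 0.14 and 0.26 ± 0.12 in KO, not called. The block called Kif18a and Kif18b higher in KO as well.

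The 2 members that fell in irradiated KO without the block were kinesins, and with the block 7 members of other roles were called lower too. Kif23, the central spindle motor of the centralspindlin complex, had 144 and 148 against 176 and 190.4 CPM in WT and 120.0 and 140.0 against 104 and 113 CPM in KO. It fell in KO (log2 change -0.30 ± 0.10, edgeR adjusted p = 0.0445), while the WT change was 0.27 ± 0.10 (edgeR adjusted p = 0.0652, and 6.86e-06 with the block, where it was called higher). Its KO libraries after irradiation were the lowest of the 8. Racgap1, its partner in centralspindlin, was at -0.11 ± 0.07 in WT and -0.10 ± 0.07 in KO, and the block called it lower in both (edgeR adjusted p = 0.0148 and 0.0273). Kif22, a motor that pushes chromosome arms toward the plate, had 81.6 and 85.5 against 88.6 and 90.1 CPM in WT and 120.4 and 117 against 101 and 105 CPM in KO, with a fall in KO of -0.24 ± 0.07 (edgeR adjusted p = 0.0234) and 0.04 ± 0.07 in WT (edgeR adjusted p = 0.687). Neither KO fall was called under every alternative. Kif14, a cytokinesis motor, was at 0.19 ± 0.10 and 0.14 ± 0.10, called higher in both lines only with the block.

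**Figure D4:**
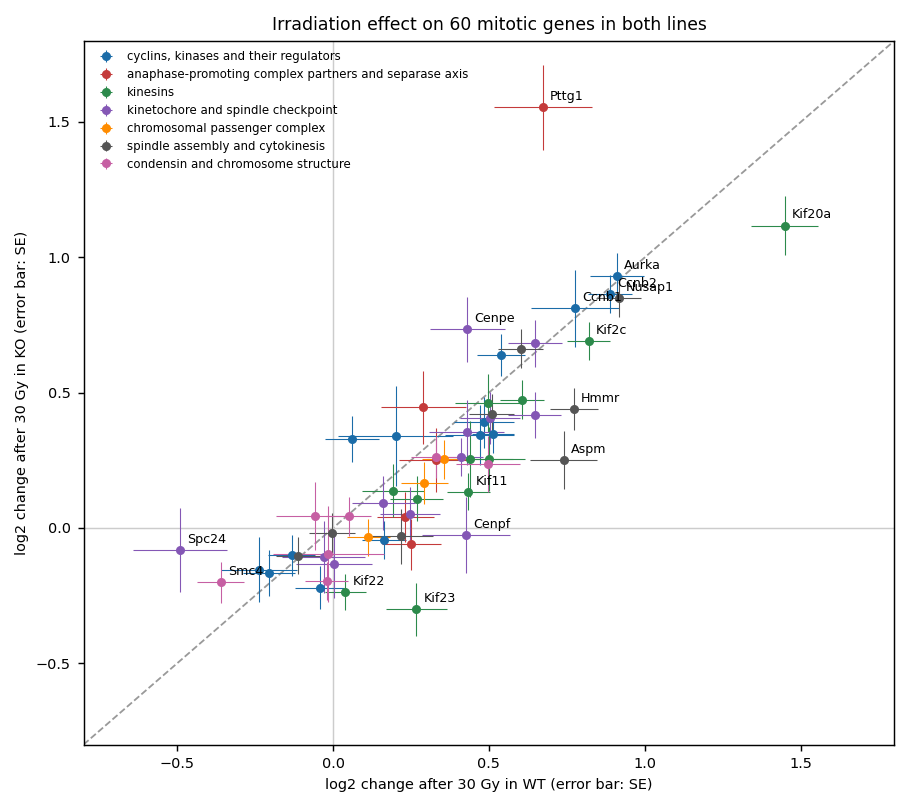
Log2 change after 30 Gy in WT (horizontal) and in KO (vertical) for the 60 members, coloured by role, with standard errors as bars and the line of equal change dashed. Most points lie near the line and slightly below it, 43 of 60 with the higher signed log2 change in WT. Pttg1 lies far above the line at 0.67 and 1.55, and Kif23 below it at 0.27 and -0.30.

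At the kinetochore 7 of 12 genes rose and 1 fell in WT, and 6 rose in KO, with median log2 changes of 0.42 and 0.18. The WT shares were 58.3% higher and 8.33% lower, beside 20.4 and 18.4% of all tested genes. In KO 50% were higher, beside 21.1% of all tested genes. The 4 subunits of the NDC80 complex, which grips the ends of microtubules, moved unequally. Ndc80 rose, with 61.9 and 66.0 against 105 and 103 CPM in WT and 78.8 and 75.1 against 112 and 98.0 CPM in KO and changes of 0.65 ± 0.09 and 0.42 ± 0.09 (edgeR adjusted p = 0.00098 and 0.00669). Its partner Nuf2 was at -0.03 ± 0.13 and -0.11 ± 0.13 and Spc25 at 0.00 ± 0.12 and -0.13 ± 0.12, none of them called with or without the block. Spc24 fell in WT, with 69.2 and 58.3 against 52.5 and 42.3 CPM in WT and 32.2 and 35.3 against 36.1 and 29.4 CPM in KO, a change of -0.49 ± 0.15 (edgeR adjusted p = 0.0355), and was at -0.08 ± 0.16 in KO. Its WT groups did not overlap and its KO groups did.

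The centromere histone gene Cenpa had 128 and 119.6 against 208 and 196 CPM in WT and 118 and 107 against 194 and 176 CPM in KO and rose by 0.65 ± 0.09 and 0.68 ± 0.09 (edgeR adjusted p = 0.00105 and 0.000781). Cenpe, the kinetochore kinesin, had 285 and 346 against 411 and 475 CPM in WT and 285 and 295 against 465 and 524 CPM in KO. It rose by 0.43 ± 0.12 in WT and 0.73 ± 0.12 in KO (edgeR adjusted p = 0.024 and 0.00251). Cenpf, a large kinetochore and nuclear matrix protein, had 290.4 and 362 against 415 and 496 CPM in WT and 299 and 336 against 297 and 343 CPM in KO, a rise of 0.42 ± 0.14 in WT (edgeR adjusted p = 0.0462) and a change of -0.03 ± 0.14 in KO (edgeR adjusted p = 0.909). The KO groups of Cenpf overlapped, so of these large kinetochore proteins the first rose in both lines and the second in WT.

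Of the checkpoint genes, whose products delay anaphase until every chromosome is attached, Bub1b, Bub3 and Ttk rose in both lines. Bub1b, the BUBR1 pseudokinase, had 225 and 218 against 316 and 298 CPM in WT and 169 and 173 against 209 and 211 CPM in KO and rose by 0.41 ± 0.07 and 0.26 ± 0.07. Bub3, their common adaptor, had 143 and 124 against 201 and 174 CPM in WT and 169.7 and 149.5 against 224 and 194 CPM in KO, with 0.43 ± 0.12 and 0.35 ± 0.12. Ttk, the MPS1 kinase at the top of the signal, rose by 0.50 ± 0.10 and 0.41 ± 0.10. Bub1, the kinase that brings the others to the kinetochore, had 149 and 137 against 175 and 178 CPM in WT and 129.6 and 112 against 135 and 121 CPM in KO, changes of 0.25 ± 0.10 and 0.05 ± 0.10 that were not called (edgeR adjusted p = 0.0769 and 0.709), the former called with the block. Mad2l1, which binds Cdc20 directly, had 96.6 and 88.4 against 113 and 103 CPM in WT and 133 and 114 against 142 and 128 CPM in KO, with 0.16 ± 0.10 and 0.09 ± 0.10 (edgeR adjusted p = 0.24 and 0.503), and was called higher in WT with the block.

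The chromosomal passenger complex places Aurora B. Of its 3 other genes listed here 2 rose in WT and 1 in KO. These are shares of 66.7 and 33.3%, beside 20.4 and 21.1% of all tested genes. Birc5, survivin, had 152 and 144 against 197 and 180.3 CPM in WT and 123 and 117 against 140.4 and 135 CPM in KO and rose by 0.29 ± 0.08 in WT (edgeR adjusted p = 0.0186), against 0.17 ± 0.08 in KO (edgeR adjusted p = 0.123), called there with the block. Cdca8, borealin, rose by 0.36 ± 0.07 and 0.25 ± 0.07, and the scaffold Incenp was at 0.11 ± 0.07 and -0.03 ± 0.07, called higher in WT with the block (edgeR adjusted p = 0.0266).

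Genes of spindle assembly and cytokinesis had the highest median of the roles in WT, 0.55, with 5 of 8 higher, and 0.34 in KO, with 4 of 8 higher. The shares higher were 62.5 and 50%, beside 20.4 and 21.1% of all tested genes. Nusap1, a microtubule bundler near chromosomes, had 156 and 158 against 310.1 and 306 CPM in WT and 161 and 157 against 303 and 283 CPM in KO, and rose by 0.92 ± 0.07 and 0.85 ± 0.07 (edgeR adjusted p = 8.58e-05 and 9.27e-05). Tpx2, the activator of Aurora A, had 278 and 289.5 against 408 and 433 CPM in WT and 262 and 269.9 against 368 and 362 CPM in KO and rose by 0.51 ± 0.07 and 0.42 ± 0.07. Prc1, the midzone bundler, had 146 and 148 against 228 and 235 CPM in WT and 173 and 179.9 against 277 and 295 CPM in KO and rose by 0.60 ± 0.07 and 0.66 ± 0.07. Hmmr, a spindle pole protein, rose by 0.77 ± 0.08 and 0.44 ± 0.08. Aspm, a spindle pole organiser, rose in WT by 0.74 ± 0.11 and was at 0.25 ± 0.11 in KO, where the block called it higher (edgeR adjusted p = 3.83e-06).

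The cytokinesis genes Anln, Ect2 and Racgap1, which build and position the contractile ring, were not among those that rose. Anln, anillin, was at -0.00 ± 0.07 and -0.02 ± 0.07, and Ect2, the activator of RhoA, at 0.22 ± 0.10 and -0.03 ± 0.10. Of the 3, the block called Ect2 higher in WT (edgeR adjusted p = 9.62e-06).

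Of the chromosome structure genes 2 of 7 rose and 1 fell in WT and 1 rose in KO, with median log2 changes of -0.02 and 0.04. The WT shares were 28.6% higher and 14.3% lower, beside 20.4 and 18.4% of all tested genes. In KO 14.3% were higher, beside 21.1% of all tested genes. Condensin I, which compacts chromosomes, moved unequally over its subunits. Ncapd2 rose in WT, with 368 and 416 against 541 and 609.6 CPM in WT and 316 and 348 against 387 and 415 CPM in KO, a change of 0.50 ± 0.10 (edgeR adjusted p = 0.00718), and was at 0.24 ± 0.10 in KO, called with the block. Smc4, its ATPase subunit, fell in WT, with 739 and 719 against 605 and 578 CPM in WT and 614 and 564 against 525 and 524 CPM in KO and a change of -0.36 ± 0.07 (edgeR adjusted p = 0.00725), against -0.20 ± 0.07 in KO, called lower with the block. The partner ATPase Smc2 was at -0.02 ± 0.07 and -0.20 ± 0.07, the latter called lower with the block (edgeR adjusted p = 9.10e-05). Without a call in either line stood Ncapg at -0.06 ± 0.13 and 0.04 ± 0.13 and Ncaph at 0.05 ± 0.07 and 0.04 ± 0.07.

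Top2a, the topoisomerase that untangles sister chromatids, had 1369 and 1460.2 against 1771 and 1930.4 CPM in WT and 1161 and 1186 against 1408 and 1475 CPM in KO. It rose by 0.33 ± 0.08 in WT and 0.26 ± 0.08 in KO (edgeR adjusted p = 0.0133 and 0.0319). Mki67, the Ki-67 protein that coats mitotic chromosomes and serves as a mark of cycling cells, had 862 and 1114 against 890.1 and 1144 CPM in WT and 1261 and 1456 against 1154 and 1452 CPM in KO. Its groups overlapped in both lines, with changes of -0.02 ± 0.18 and -0.10 ± 0.18 (edgeR adjusted p = 0.959 and 0.714), the latter called lower with the block. Replicate 2 was the higher library of Mki67 in every group.

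By exonic length, the highest level in non-irradiated WT was that of Top2a, at 157 ± 7.17 CPM per kb (SD, n = 2), followed by Smc4 at 140.0 ± 2.79, Cdc20 at 111 ± 13.6, Cks2 at 106 ± 16.6, Ccna2 at 98.7 ± 5.34 and Mki67 at 98.2 ± 17.7. From Cdc20 to Mki67 these neighbours did not differ beyond their spread. The lowest were Kif18a at 4.58 ± 0.92 and Cdc25c at 4.92 ± 0.21, also within the spread of each other.

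Across the 60 genes the irradiation changes of the 2 lines, which share no library, had the same sign for 51, and 24 rose in both. Neither count was made over all tested genes, so they do not set the members apart from other genes. The 8 that rose in WT and were not called in KO were Kif11, Kif15, Kif18a, Kif18b, Cenpf, Birc5, Aspm and Ncapd2, and the 2 that rose in KO and were not called in WT were Gtse1 and Ube2c. Whether these differ between the lines is a question for the interaction, the KO change minus the WT change. It called none of the 60 in either direction, where 1.37% of all genes were called higher and 0.57% lower. Without adjustment 7 of the 60 had p under 0.05, 1 positive (Pttg1) and 6 negative (Espl1, Kif11, Kif22, Kif23, Hmmr and Aspm). The smallest edgeR adjusted p values were 0.115 for Kif23 (interaction -0.57 ± 0.14) and 0.125 for Pttg1 (0.88 ± 0.22), and DESeq2 called 1 member higher and 1 lower. With the replicate block 5 members were called higher and 16 lower, where 8.15% of all genes were called higher and 8.55% lower.

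In the blocked comparison the interaction was 0.86 ± 0.11 for Pttg1 (edgeR adjusted p = 7.67e-08), -0.57 ± 0.07 for Kif23 (2.59e-08), -0.49 ± 0.06 for Aspm (5.38e-08) and -0.45 ± 0.06 for Cenpf (9.93e-08). The CPM behind that of Aspm were 174 and 209 against 323 and 343 CPM in WT and 210.1 and 232 against 257 and 282 CPM in KO, so its rise was present in both lines and smaller in KO. Hmmr had 169.9 and 172 against 291 and 316 CPM in WT and 182 and 175 against 238 and 258 CPM in KO, with a blocked interaction of -0.33 ± 0.06 (edgeR adjusted p = 0.000145). All 11 genes of the kinesin list had a negative estimate without the block. Their median was -0.19, beside -0.09 over the 60 and -0.01 over all tested genes. Cenpe, a kinesin placed in the kinetochore list, went the other way, at 0.30 ± 0.06 with the block (edgeR adjusted p = 0.00024). Of the 12 genes of the kinetochore list the block called 2 higher in the interaction, Cenpe and Spc24 (0.38), and 3 lower.

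Between the lines, 41 of the 60 mitotic genes had a lower estimate in KO without irradiation and 43 after it. Without irradiation 6 of 60 were higher in KO and 8 lower (10 and 13.3%), where 10.4% of all genes were called higher and 9.49% lower, and the median was -0.11 beside -0.01 over all tested genes. After irradiation 6 were higher and 19 lower (10 and 31.7%), where 13.3% of all genes were called higher and 11.4% lower, with a median of -0.15 beside -0.01. With the block the counts were 13 higher and 30 lower without irradiation, where 21.4% of all genes were called higher and 23.5% lower, and 13 and 35 after it, where 25.2% were called higher and 25.2% lower. Leaving out single libraries gave 1 to 5 higher and 1 to 6 lower without irradiation, and 1 to 5 higher and 7 to 18 lower after it. The calls present under every alternative were Kif22 higher and Spc24 lower without irradiation, and Pttg1 higher and Bub1b, Espl1, Kif23 and Smc2 lower after it. Each of these comparisons shares its libraries with the irradiation comparisons above and none with the other. Lower in both arms were 7 members, namely Plk4, Espl1, Bub1b, Spc24, Birc5, Smc2 and Top2a, and higher in both were 5, namely Cdc25c, Kif22, Kif2c, Mad2l1 and Prc1. Genes called in both arms were not counted over all tested genes.

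Position on the chromosomes moved with these differences. Over all tested genes the median KO effect was 0.37 without and 0.38 after irradiation on chromosome 7 (1148 genes) and 0.38 and 0.40 on chromosome 18 (358 genes), beside -0.01 in the whole table. Of the members, 7 lie there (Plk1, Kif22, Prc1, Bub3 and Mki67 on the first, Cdc25c and Kif20a on the second), and 7 of 7 were above 0 in both arms, with medians of 0.45 and 0.25 and 4 and 3 called higher. Of the other 53 members 12 and 10 were above 0, with medians of -0.13 and -0.19, 2 and 3 called higher and 8 and 19 called lower. Chromosome 16 (448 genes), which holds no member, had medians over all tested genes of -0.32 and -0.36. The part of chromosome position in the members' calls was not tested.

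Among the genes lower in KO, Spc24 had the largest difference without irradiation, -0.93 ± 0.15 (edgeR adjusted p = 0.00577), and -0.52 ± 0.15 after it. Its 4 WT libraries, at 42.3 to 69.2 CPM, all lay above its 4 KO libraries. Bub1b was at -0.38 ± 0.07 without and -0.53 ± 0.07 after irradiation (edgeR adjusted p = 0.00857 and 0.00152). Espl1 was at -0.35 ± 0.09 and -0.66 ± 0.09 (edgeR adjusted p = 0.0359 and 0.00209). Plk4, with 144 and 151 against 142 and 139 CPM in WT and 119.6 and 111 against 115 and 105 CPM in KO, was at -0.37 ± 0.08 and -0.34 ± 0.08, so the KO libraries were lower at either dose. Smc2 was at -0.30 ± 0.07 and -0.47 ± 0.07, Birc5 at -0.32 ± 0.08 and -0.44 ± 0.08 and Top2a at -0.28 ± 0.08 and -0.35 ± 0.08.

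After irradiation Kif23 had the largest fall below WT, -0.74 ± 0.10 (edgeR adjusted p = 0.00161), then Espl1, Bub1b and Spc24 as above, Ncapd2 at -0.51 ± 0.10 (edgeR adjusted p = 0.0099) and Cenpf at -0.50 ± 0.14 (edgeR adjusted p = 0.0378). Ccna2 was at -0.43 ± 0.08 (edgeR adjusted p = 0.00654), and Kif18b at -0.48 ± 0.12. Pttg1 was the opposite, 0.98 ± 0.15 above WT after irradiation (edgeR adjusted p = 0.00336) and 0.10 ± 0.16 without it (edgeR adjusted p = 0.726). Securin and separase transcripts thus lay on opposite sides of WT in irradiated KO, the inhibitor higher and the protease lower.

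Of the genes higher in KO, Cdc25c was at 0.53 ± 0.10 and 0.43 ± 0.09 (edgeR adjusted p = 0.00842 and 0.0135), Kif22 at 0.50 ± 0.07 and 0.22 ± 0.07, and Prc1 at 0.26 ± 0.07 and 0.32 ± 0.07, all on chromosomes 7 and 18. Kif20a was higher without irradiation, 0.49 ± 0.11 (edgeR adjusted p = 0.0178), and at 0.16 ± 0.11 after it. Its antisense neighbour Cdc23 was higher in KO in both arms, by 0.61 ± 0.08 and 0.50 ± 0.08. Kif2c, at 0.40 ± 0.07 and 0.27 ± 0.07, and Mad2l1, at 0.40 ± 0.10 and 0.34 ± 0.10, were higher on other chromosomes. With the block 7 further members were called higher in each arm. In both arms these were Plk1, at 0.38 ± 0.05 and 0.25 ± 0.05, Bub3, at 0.25 ± 0.05 and 0.17 ± 0.04, and Mki67, at 0.46 ± 0.03 and 0.37 ± 0.03, which lie on chromosome 7, and Cdc20, at 0.26 ± 0.04 and 0.17 ± 0.04, which lies on chromosome 4. Without irradiation the others were Ndc80, Cdca8 and Aspm, at 0.26 ± 0.06, 0.21 ± 0.05 and 0.20 ± 0.04. After irradiation they were Gtse1, Cenpe and Kif20a, at 0.27 ± 0.06, 0.17 ± 0.04 and 0.16 ± 0.04. Ccnb1, Aurka and Nusap1, among the largest rises after irradiation, were called in neither arm with or without the block, with estimates from -0.10 to 0.02.

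**Figure D5:**
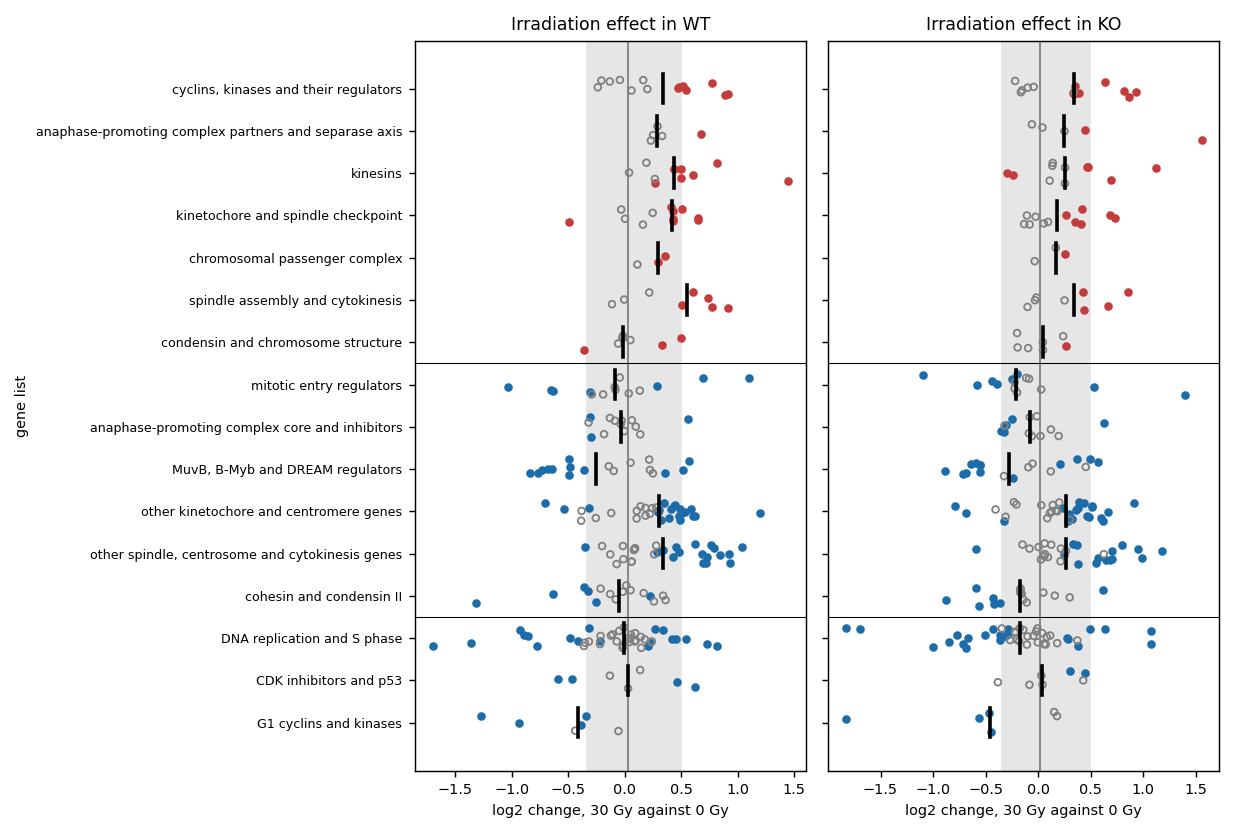
Log2 change after 30 Gy in WT (left) and KO (right) of each gene of the 7 member roles, the 6 further mitotic lists and the 3 lists of other phases. Filled points passed the edgeR test, open ones did not, the short bars are list medians, and the grey band spans the middle quartiles of all tested genes. Kinetochore and spindle lists sit to the right of the line of the all-gene median, while the lists of MuvB, B-Myb and DREAM regulators and of G1 cyclins sit to the left.

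In the wider kinetochore and spindle machinery more genes rose than fell. Of 32 other kinetochore and centromere genes 17 rose and 3 fell in WT (median 0.30) and 16 rose and 3 fell in KO (median 0.26). The higher shares were 53.1 and 50%, beside 20.4% of all tested genes in WT and 21.1% in KO. The lower share was 9.38% in each line, beside 18.4 and 18.6%. Cenpp, of the inner kinetochore, rose by 1.19 ± 0.20 in WT and 0.66 ± 0.19 in KO, Oip5, which loads centromere histone, rose by 0.91 ± 0.10 in KO, and the checkpoint gene Zw10 fell, at -0.53 ± 0.13 and -0.68 ± 0.13. Of 29 other spindle, centrosome and cytokinesis genes 16 rose and 1 fell in WT (median 0.34), and 14 rose and 1 fell in KO (median 0.26). Here the higher shares were 55.2 and 48.3% and the lower share 3.45% in each line, beside the same all-gene shares. Psrc1, a spindle microtubule protein, rose by 1.04 ± 0.18 and 1.18 ± 0.19, and the gene that fell in each line was Kif2a, a depolymerase that also acts outside mitosis, at -0.35 ± 0.07 and -0.59 ± 0.07. In KO against WT without irradiation the kinetochore list held 4 lower and 0 higher calls and the spindle list 6 and 1. The lower shares were 12.5 and 20.7%, the first near the 9.49% of all tested genes. After irradiation the lists held 9 and 1 and 7 and 1, lower shares of 28.1 and 24.1% where 11.4% of all genes were called lower.

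Regulators of entry moved in both directions. Of 14 tested mitotic entry regulators 3 rose and 4 fell in WT, and 2 rose and 6 fell in KO. Their shares were 21.4% higher and 28.6% lower in WT and 14.3 and 42.9% in KO, beside 20.4 and 18.4% and 21.1 and 18.6% of all tested genes. Mastl, the Greatwall kinase that shields CDK1 substrates from phosphatase, rose by 1.10 ± 0.08 and 1.40 ± 0.08 (edgeR adjusted p = 8.11e-05 and 1.80e-05), as did Wee1, the kinase that inhibits CDK1, by 0.69 ± 0.10 and 0.53 ± 0.10. Cdc25a, which removes what Wee1 adds, was at -0.65 ± 0.11 and -0.59 ± 0.11, and the mitotic kinase gene Pbk at -1.03 ± 0.18 and -1.10 ± 0.19, both lower in each line. Of 13 core genes and inhibitors of the anaphase-promoting complex 1 rose and 2 fell in WT, and 1 rose and 4 fell in KO. Their shares were 7.69% higher and 15.4% lower in WT and 7.69 and 30.8% in KO, beside the same all-gene shares. Of 18 listed MuvB, B-Myb and DREAM regulators, which switch mitotic promoters on and off, 3 rose and 9 fell in WT (median -0.25), and 4 rose and 9 fell in KO (median -0.28). The higher shares, 16.7 and 22.2%, were near the 20.4 and 21.1% of all tested genes. The lower share was 50% in each line, beside 18.4 and 18.6%. This list also holds genes outside the MuvB and DREAM complexes, such as the NF-Y genes, E2f7 and E2f8. In WT E2f4 was at -0.77 ± 0.12 and E2f5 at -0.84 ± 0.15, and in KO E2f8 was at -0.89 ± 0.14 and E2f7 at -0.71 ± 0.10. Of 16 cohesin and condensin II genes 1 rose and 5 fell in WT, and 1 rose and 6 fell in KO. Their shares were 6.25% higher and 31.2% lower in WT and 6.25 and 37.5% in KO, beside the same all-gene shares. Stag1, a cohesin subunit, was the lowest of them in both lines, at -1.32 ± 0.07 and -0.88 ± 0.07.

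Lists of other phases were set beside these. Of 43 DNA replication and S phase genes 9 rose and 10 fell in WT (median -0.01), and 7 rose and 15 fell in KO (median -0.18). The WT shares, 20.9% higher and 23.3% lower, were near the 20.4 and 18.4% of all tested genes, and in KO they were 16.3 and 34.9% beside 21.1 and 18.6%. Ccne1, the cyclin of S phase entry, fell, with log2 changes of -1.70 ± 0.18 and -1.83 ± 0.19, as did Tk1, thymidine kinase, with -1.36 ± 0.07 and -1.69 ± 0.07, while Mcm10, a replication initiator, rose by 0.73 ± 0.07 and 1.08 ± 0.08. Of 6 G1 cyclins and kinases 0 rose and 4 fell in each line (medians -0.41 and -0.46), among them Ccnd1 at -1.27 ± 0.12 and -1.83 ± 0.13. Their lower share was 66.7% in each line, beside 18.4 and 18.6% of all tested genes. Of 7 tested CDK inhibitors and p53 genes 2 rose and 2 fell in WT and 2 rose in KO, where Cdkn1a, the p21 inhibitor, rose by 0.44 ± 0.07. Their shares were 28.6% higher and 28.6% lower in WT and 28.6% higher in KO, beside the same all-gene shares.

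In KO against WT the S phase list held 2 higher and 18 lower genes without irradiation (median -0.28) and 3 and 20 after it (median -0.36). The lower shares were 41.9 and 46.5%, where 9.49 and 11.4% of all genes were called lower. Mcm4, at -1.24 ± 0.07, was among the genes lower after irradiation. The part of chromosome position in these S phase calls was not tested. Cdkn1a was higher in KO in both arms, by 0.88 ± 0.08 and 1.18 ± 0.08 (edgeR adjusted p = 0.000369 and 5.13e-05), and so was Ccnd2, cyclin D2, by 0.30 ± 0.08 and 1.41 ± 0.08. The interaction of Ccnd2 was 1.11 ± 0.11 (edgeR adjusted p = 0.00255), so that this G1 cyclin, unlike the 60 mitotic genes, passed that test without the block. Trp53 was lower in KO, at -0.39 ± 0.08 and -0.55 ± 0.08.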

How the data were processed

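The authors deposited a table of unnormalized read counts, 1 row per Ensembl gene, for the 8 libraries. HISAT2, HISAT, HTSeq and DESeq2, with build mm10, are named per the submitters' processing notes, without versions or roles. For the strand setting, annotation and filters the sources used here give nothing, so reads of overlapping antisense genes cannot be told apart. Whether the replicates are separate cultures is not given either, and p-values measure only the spread between these libraries, which may be technical.

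Symbols, exons and coordinates came from GENCODE M21, in which 28880 of 29079 gene IDs were found, and promoters from RefSeq (GRCm38.p6). Counts were tested in R 4.3.3 with edgeR 4.0.16. filterByExpr (minimum count 10, minimum total 15) kept 14923 genes with 99.86 to 99.93% of the counts. TMM factors ran from 0.975 to 1.02. The model had a coefficient for each of the 4 groups, all 8 libraries and 4 residual degrees of freedom, and each comparison used the two-sided quasi-likelihood F test, adjusted over all tested genes by Benjamini-Hochberg and called under 0.05. The standard error of a log2 change was taken from its F statistic. The test was checked on simulated data. CPM is relative to the library's total counts, and CPM per kb divides it by exonic length.

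Depth limits low genes, but every member had at least 20 CPM in every library. Replicates of a group differed by more than sampling noise (chi-square per degree of freedom 12.9 to 23.2). The deviations of same-numbered replicates from their group means correlated at 0.564 to 0.611 over all genes and 0.644 to 0.899 over members in the 6 pairs of groups, so the replicate number, from the titles, was also used as a block. Over members the mean log2 ratio of replicate 1 to replicate 2 had a Spearman rho of -0.358 with exonic length. What the replicate number stands for was not tested. Other alternatives were RLE, total-count and upper-quartile scaling, no filter, DESeq2 1.42.0, only the groups compared, and leaving out each library. Members, lists and motifs were chosen with earlier results of these data known. Per-library values were given for a set of anchor genes, the 6 largest called rises and falls of a comparison and every call against the main direction. Aspm and Hmmr were added after their values were seen. Of 182 further list genes 180 were matched.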

Additional observations from a re-analysis of the deposited data

Results flagged for a closer look

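The irradiation effect of 21 members differed between KO and WT by the interaction test with the replicate block, which is a test of the difference itself. Without the block the same test called 0 of 60, with 7 at an unadjusted p under 0.05. The blocked interaction, KO change minus WT change on the log2 scale, was positive for 5 members. That is near the share of all tested genes called higher, 8.15%. It was 0.86 for Pttg1, 0.38 for Spc24, 0.30 for Cenpe, 0.27 for Gtse1 and 0.16 for Smc4.

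The other 16 were negative, where 8.55% of all tested genes were called lower. Among cyclins, phosphatases and separase, Ccna2 stood at -0.18, Cdc25b at -0.21 and Espl1 at -0.31. Of the kinesins, Kif23 stood at -0.57, Kif20a at -0.33, Kif11 at -0.30, Kif22 at -0.27 and Kif18b at -0.24. Kinetochore genes were Cenpf at -0.45, Ndc80 at -0.24 and Bub1 at -0.20. Spindle and cytokinesis genes were Aspm at -0.49, Hmmr at -0.33 and Ect2 at -0.25, and condensin genes Ncapd2 at -0.26 and Smc2 at -0.18.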

How the results depend on the processing

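Median log2 changes over the members kept their sign under every alternative run, and no called gene of the members changed sign. The medians also moved by less than the median standard error of the members' log2 changes. The replicate block moved the number of members lower after irradiation in WT from 2 to 6 and in KO from 2 to 9. It moved the KO effect without irradiation from 6 higher and 8 lower to 13 and 30, that after irradiation from 6 and 19 to 13 and 35, and the interaction from 0 and 0 to 5 and 16. Members lower in WT were 1 with total counts, with upper-quartile factors and with only the groups compared. Members lower in KO were 1 with total counts, with upper-quartile factors, without the filter and with DESeq2, and 0 with only the groups compared. With only the groups compared the KO effect had 3 lower without irradiation and 3 higher after it, and DESeq2 also gave 3 higher after it. The interaction had 1 higher and 2 lower without the filter and 1 and 1 with DESeq2. Leaving out single libraries gave 0 to 2 lower in WT, 17 to 23 higher and 0 to 3 lower in KO, 1 to 5 higher and 1 to 6 lower for the KO effect without irradiation, and 1 to 5 and 7 to 18 after it. A library left alone in its group is there assumed to vary like the other groups. The cause of these changes was not tested. Each group has 2 libraries, and the parts of depth and of the spread between libraries in calls near the threshold were not tested.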
